A study of Mus musculus with 16 samples.

Results

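The interferon regulatory factors (IRFs) are the transcription factors that macrophages use to turn pathogen sensing and interferon signals into gene expression. The genes described here are Irf1, Irf2, Irf3, Irf4, Irf5, Irf7, Irf8 and Irf9, chosen by name as the family members followed in F4/80+ adipose tissue macrophages (ATMs), 8 of 37310 gene identifiers in the count table. The rule used names and no threshold on a measured value.

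ATMs were taken from male mice on a high-fat diet (HFD, 60% fat) with a myeloid deletion of IRF5 (IRF5-KO) or from their wild-type (WT) littermates, and their total RNA was sequenced. The 4 groups were WT ST-HFD and IRF5-KO ST-HFD, after 4 weeks of diet (short-term), and the same genotypes on LT-HFD, after 12 weeks (long-term), with 4 libraries each. Mice were aged 7 to 10 weeks when the diet began, so those on LT-HFD were also older, and age and diet duration cannot be told apart. The IRF5-KO mice came from crossing IRF5 flox/flox with LysM-Cre, in which Cre sits in the Lyz2 locus and is active in myeloid cells. The alleles of the WT littermates are not given in the sources used here, and neither is a batch. All mice were on HFD, so the groups share that treatment and hold no chow control.

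All IRFs share an N-terminal DNA-binding domain that reads GAAA repeats, as in the interferon-stimulated response element (ISRE). IRF3 and IRF7 are phosphorylated by TBK1 downstream of nucleic acid sensors and induce type I interferon, IRF9 is the DNA-reading part of the ISGF3 complex downstream of the interferon receptor, and IRF1 is itself induced by interferon-gamma through a gamma-activated site (GAS). IRF5 acts downstream of Toll-like receptors and MyD88 and drives inflammatory cytokine genes, whereas IRF4 competes with it for MyD88 and favours alternative activation. IRF2 binds the sites used by IRF1 and can oppose it, and IRF8 works with PU.1 in myeloid identity.

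Promoter sequence was examined since several IRF genes respond to the signals they transmit. RefSeq promoters on GRCm38.p6, each running from 250 bases before to 50 bases after an annotated start, were matched for all 8 members, which have 11 of them. They were searched on both strands for the ISRE core GAAANNGAAA and for the GAS, TTCNNNGAA, which reads the same on both strands. In the members no match of one overlapped a match of the other. An ISRE core was found in the promoter of 1 member, Irf2, against 3.44% of all 32851 promoters. A GAS was found for 3 members, Irf1, Irf2 and Irf8, in 3 of 11 promoters, against 8.3% of all promoters. The sequences that hold a match are shown from base -250 to base -51 before the start, plus strand, with the matches in capitals. For Irf1 (chr11:53769764-53769963) the capitals mark a GAS at bases -90 to -82. For Irf2 (chr8:46739495-46739694) they mark the ISRE core at -241 to -232 and a GAS at -224 to -216. For Irf8 (chr8:120736108-120736307) they mark GAS matches at -171 to -163 and at -153 to -145.
Irf1: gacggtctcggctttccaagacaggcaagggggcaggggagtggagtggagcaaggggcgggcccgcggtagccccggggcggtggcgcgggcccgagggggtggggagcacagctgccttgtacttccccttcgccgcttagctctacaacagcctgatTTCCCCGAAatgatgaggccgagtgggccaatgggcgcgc
Irf2: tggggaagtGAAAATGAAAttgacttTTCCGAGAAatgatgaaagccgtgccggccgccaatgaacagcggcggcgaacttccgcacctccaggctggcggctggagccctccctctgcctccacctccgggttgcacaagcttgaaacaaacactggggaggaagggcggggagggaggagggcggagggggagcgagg
Irf8: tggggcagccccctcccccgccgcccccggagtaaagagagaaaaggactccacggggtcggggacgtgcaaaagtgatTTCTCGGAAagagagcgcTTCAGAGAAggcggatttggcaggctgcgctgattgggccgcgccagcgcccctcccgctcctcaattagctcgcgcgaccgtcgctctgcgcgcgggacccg
The other 8 promoters held neither run of letters. A match describes the letters and not binding.

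The libraries held 3279332 to 4958131 counts, between 3860469 and 4958131 in ST-HFD libraries and between 3279332 and 3792898 in LT-HFD libraries. The 3 most abundant features (mmu-mir-689-2, mt-Rnr1 and mt-Rnr2) took 18.6% to 24.1% of the counts in ST-HFD libraries and 26.1% to 34.5% in LT-HFD libraries. Of 10 macrophage markers all 10 had counts, and Adgre1, which encodes F4/80, was between 507 and 995 CPM (counts scaled to a common library size by TMM). The summed level of 5 fibroblast and preadipocyte markers (Pdgfra, Col1a1, Col3a1, Dcn and Lum) ran from 555 to 1333 CPM after ST-HFD and from 2420 to 7103 CPM after LT-HFD, and all 5 were called higher on LT-HFD in both genotypes. Macrophage markers summed to 8157 to 8916 CPM in IRF5-KO on ST-HFD and to 6856 to 7637 CPM after LT-HFD, with 2 called higher and 4 lower, and in WT to 10130 to 10660 and 8247 to 10140 CPM, with 2 called lower. Plasmacytoid dendritic cell markers, of which Klk1 was at 0, summed in IRF5-KO to 125.5 to 193 CPM and 68.0 to 117 CPM, with both tested markers called lower, and in WT to 122 to 164 CPM and 94.3 to 125 CPM, with none called. In IRF5-KO 1 conventional dendritic cell and 1 neutrophil marker were also called lower and 1 B cell marker higher, and in WT 1 conventional dendritic cell and 1 B cell marker were called higher. These markers move with diet duration, and their part in the results between durations was not tested. The labels give replicate numbers and not the animals behind them, so p-values measure the spread between these libraries. In bulk RNA, fewer cells of a type and less RNA per cell cannot be told apart.

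Irf5 (ENSMUSG00000029771, chr6:29526625-29541871, plus strand, GRCm38), the gene targeted for deletion, was examined first in every library. In WT on ST-HFD it was at 203, 252, 248 and 248 CPM, and in the libraries labelled IRF5-KO at 250, 253, 274 and 270 CPM. In WT on LT-HFD it was at 207, 183, 213 and 170.5 CPM, against 207, 253.5, 251 and 206 CPM in those labelled IRF5-KO. At neither duration was Irf5 lower in the libraries labelled IRF5-KO, the groups overlapped, and the mean was higher in IRF5-KO both times. The log2 fold change of IRF5-KO over WT was 0.13 (SE 0.09, 95% interval -0.08 to 0.34) on ST-HFD and 0.24 (SE 0.12, -0.03 to 0.51) on LT-HFD, with edgeR adjusted p = 0.9998 and 0.853. Leaving out 1 library gave 0.07 to 0.16 on ST-HFD, the lowest without WT ST-HFD replicate 1, and 0.18 to 0.31 on LT-HFD. The table counts the whole gene, so reads of the floxed exons are not separated from those of the rest, and this total does not check the deletion. Exons of Irf5 overlap exons of Tnpo3 on the opposite strand over 411 bases, and whether counting used strand is not given in the sources used here. Tnpo3 itself gave a log2 fold change between genotypes of 0.14 (SE 0.12) on ST-HFD and 0.03 (SE 0.14) on LT-HFD, neither called. Lyz2, the lysozyme gene that carries Cre, separated the genotypes. It was at 2968 to 4043 CPM over the 8 WT libraries and 1395 to 2062 CPM over the 8 labelled IRF5-KO, and IRF5-KO over WT gave a log2 value of -0.97 (SE 0.14, edgeR adjusted p = 0.106) on ST-HFD and -1.04 (SE 0.14, adjusted p = 0.0484) on LT-HFD.

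**Figure D1:**
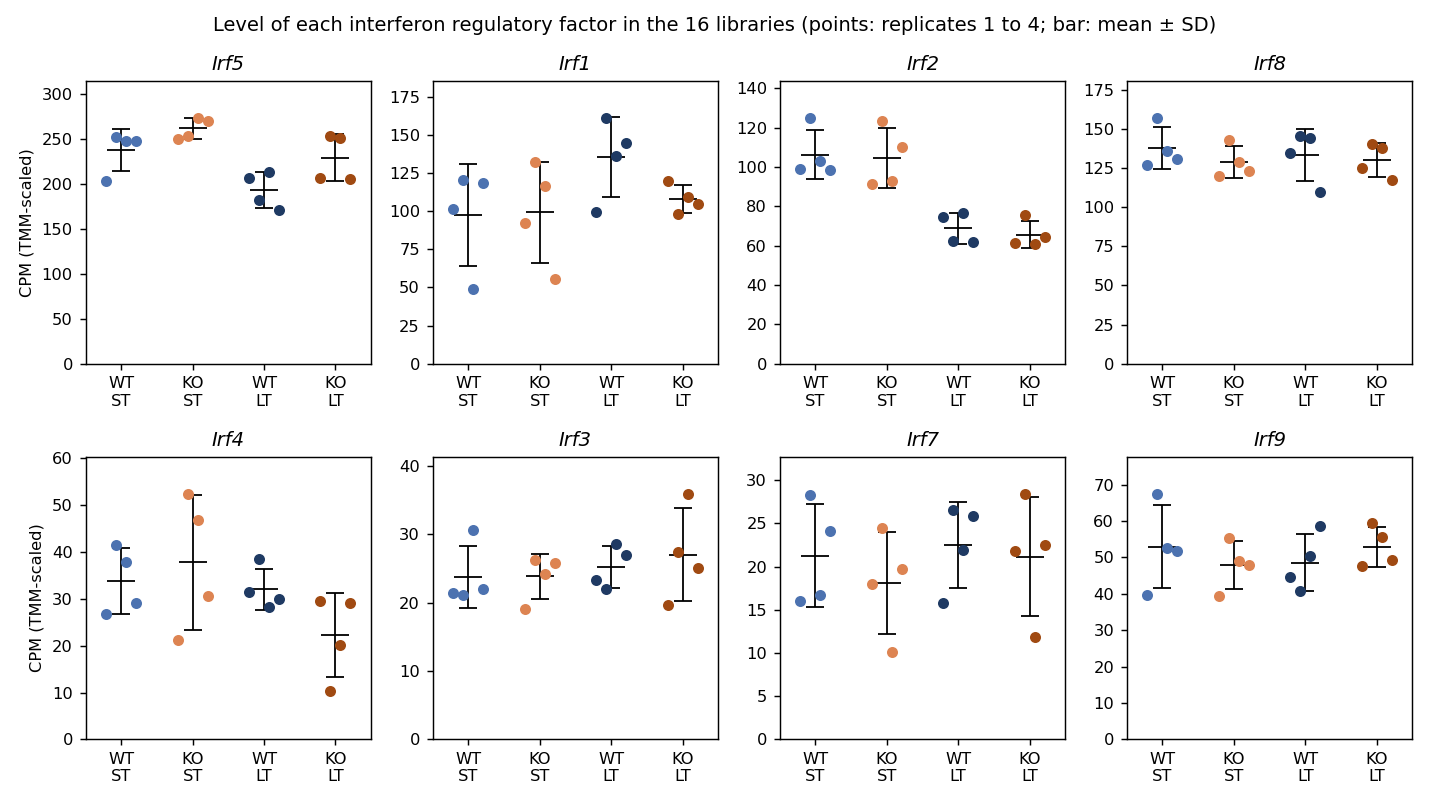
Level of each member in CPM (TMM-scaled, axes from 0) in the 16 libraries, by group (WT or IRF5-KO, ST-HFD or LT-HFD); points are replicates 1 to 4 and bars the mean ± SD. Irf2 lies lower on LT-HFD in both genotypes with no overlap, 60.96 to 76.8 CPM against 91.2 to 125 CPM, whereas Irf5 overlaps between genotypes at both durations.

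The comparison of genotypes asked whether the rest of the family moved with the IRF5 deletion. On ST-HFD no member was called by edgeR (0 of 8, with 1 of 10958 genes called, 0.00913%), 0 members had an unadjusted p under 0.05 (202 genes, 1.84%), and DESeq2 called 0 members (2 of 20131 genes, 0.00993%). No member separated the groups without overlap (0 of 8, against 1.54% of genes). Their median log2 fold change was -0.02 against 0.00 over all genes tested. The widest intervals were those of Irf7 (-0.24, 95% interval -0.82 to 0.34), Irf1 (0.01, -0.63 to 0.65) and Irf4 (0.15, -0.41 to 0.71), and these hold changes in either direction. Leaving out 1 library moved the estimate of Irf7 from -0.41, without replicate 2 of IRF5-KO, to -0.04, without replicate 3 of IRF5-KO. For Irf8 (-0.10, -0.31 to 0.11) and Irf2 (-0.03, -0.30 to 0.24) the intervals were narrower, and leaving out 1 library gave -0.15 to -0.04 for Irf8.

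On LT-HFD again no member was called by edgeR (0 of 8, with 2 of 10987 genes called, 0.0182%, which were Lyz1, higher, and Lyz2, lower, 0.0091% in each direction) or by DESeq2 (0 members, 6 of 19556 genes, 0.0307%). Again 0 of 8 separated the groups without overlap, against 3.04% of genes. Irf1 was the only member with an unadjusted p under 0.05 (1 of 8, against 629 genes, 5.72%). Irf1 (ENSMUSG00000018899, chr11:53770014-53778374, plus strand), the interferon-gamma-induced activator, was at 99.3, 161, 136 and 145 CPM in WT and at 120.0, 97.9, 109 and 104 CPM in IRF5-KO. Of the 4 WT libraries 3 were above every IRF5-KO library and 1 was among them. The log2 fold change was -0.33 (SE 0.14, 95% interval -0.65 to -0.02, edgeR adjusted p = 0.853), a difference that does not pass the correction over all genes.

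Irf4 (ENSMUSG00000021356, chr13:30749226-30766976, plus strand), the member that competes with IRF5 for MyD88, had the largest estimate on LT-HFD. It was at 31.5, 38.4, 28.4 and 29.9 CPM in WT and at 29.6, 10.3, 20.2 and 29.0 CPM in IRF5-KO. Replicates 2 and 3 of IRF5-KO were below every WT library, and the other 2 lay within the WT range. Irf4 gave a log2 fold change of -0.53 (SE 0.27, -1.12 to 0.06, edgeR adjusted p = 0.853), and without IRF5-KO LT-HFD replicate 2 it was -0.29. Irf4 rested on 38 to 204 counts a library. For the other members the log2 fold changes on LT-HFD lay between -0.09 (Irf7) and 0.24 (Irf5).

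Whether the genotype difference itself changed with diet duration was tested as an interaction over all 16 libraries. No member was called by edgeR (0 of 8, with 0 of 11560 genes called, 0%), 0 members had an unadjusted p under 0.05 (454 genes, 3.93%), and DESeq2 called 0 members and 0 genes. The largest estimate was again that of Irf4, -0.68 on the log2 scale (SE 0.41, 95% interval -1.54 to 0.18, edgeR adjusted p = 0.969), followed by Irf1 at -0.35 (SE 0.36). Leaving out 1 library moved the first from -0.89 to -0.44, the latter without IRF5-KO LT-HFD replicate 2, and that of Irf1 from -0.55 to -0.13, the former when replicate 4 of IRF5-KO and the latter when replicate 3 of WT, both on ST-HFD, was dropped. The interval of Irf5 was -0.21 to 0.42 around 0.11, and leaving out 1 library gave 0.05 to 0.17.

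**Figure D2:**
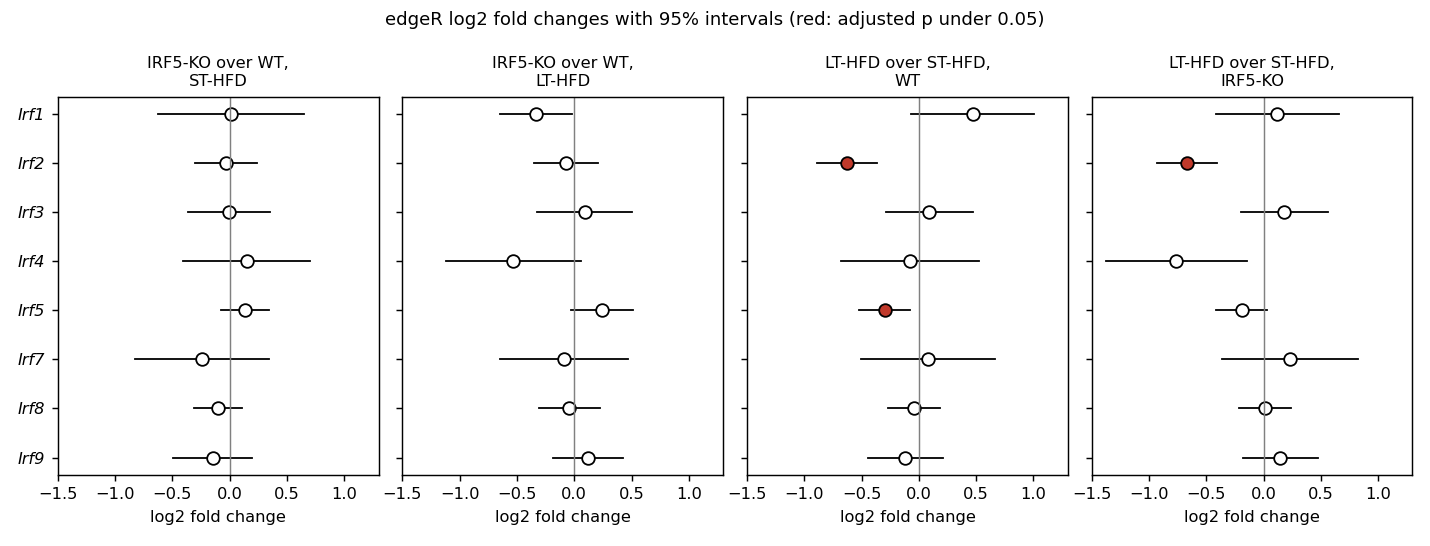
Log2 fold change (point) and 95% interval (line) of each member from edgeR for IRF5-KO over WT on each diet duration and for LT-HFD over ST-HFD in each genotype; filled red points have an adjusted p under 0.05. The filled points are Irf2 in both genotypes, at -0.63 and -0.67, and Irf5 in WT, at -0.30.

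Between diet durations the clearest difference within the family was that of Irf2, which was lower after 12 weeks in both genotypes. In WT, 2 of 8 members were called by edgeR, both lower on LT-HFD, where 25.3% of 11560 genes were called and 13.2% were called lower. The same 2 members were those with an unadjusted p under 0.05 (35.9% of genes), and DESeq2 called 2 (21.4% of genes). In IRF5-KO, 1 of 8 was called, also lower, where 32.8% of genes were called and 17.2% called lower. There 2 had an unadjusted p under 0.05 (42.8% of genes), and DESeq2 called 2, Irf2 and Irf4 (27.7% of genes). The number of members called either way was near the share of all genes in WT and below it in IRF5-KO.

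Irf2 (ENSMUSG00000031627, chr8:46739732-46847458, plus strand), which can oppose IRF1 at shared sites and whose promoter is printed above, was called in both genotypes. In WT it was at 98.7, 125, 103 and 98.6 CPM on ST-HFD and at 74.4, 62.2, 76.8 and 61.98 CPM on LT-HFD. In IRF5-KO it was at 91.2, 123.5, 92.9 and 110.3 CPM on ST-HFD and at 61.1, 75.6, 60.96 and 64.6 CPM on LT-HFD. Every LT-HFD library was below every ST-HFD library, within each genotype and across both. The log2 fold change of LT-HFD over ST-HFD was -0.63 in WT (SE 0.12, 95% interval -0.89 to -0.36, edgeR adjusted p = 0.00125) and -0.67 in IRF5-KO (SE 0.13, -0.93 to -0.41, edgeR adjusted p = 5.7e-04). Irf2 was the only member whose groups did not overlap between durations, 1 of 8 in each genotype, where 26.1% of genes in WT and 29.4% in IRF5-KO did not overlap. Leaving out any single library kept the call in both genotypes, with estimates from -0.68 to -0.54 in WT and from -0.75 to -0.58 in IRF5-KO. The interaction of Irf2 was -0.05 (SE 0.18, -0.42 to 0.33).

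Irf5 was the other member called lower on LT-HFD in WT. Its level was 238 ± 23.2 CPM on ST-HFD and 193 ± 20.1 CPM on LT-HFD (SD, n = 4), and the ranges overlapped through WT ST-HFD replicate 1 at 203 CPM. Irf5 gave a log2 fold change of -0.30 (SE 0.11, -0.52 to -0.07, edgeR adjusted p = 0.0485), close to the threshold, and the call was lost in 11 of 16 fits that left out 1 library, with adjusted p from 0.0261 to 0.152. It held without WT ST-HFD replicate 1, WT LT-HFD replicates 1 or 3, or IRF5-KO LT-HFD replicates 2 or 4. DESeq2 called it (adjusted p = 0.0283). The replicate block joins same-numbered libraries of the durations, whose deviations correlated at -0.211 to 0.363 in WT. The call of Irf5 was lost in edgeR with this block (adjusted p = 0.0984), with no filter on low counts (0.101), without the 3 most abundant features (0.0541) and in a fit of the 8 WT libraries alone (0.0992). In IRF5-KO the means were 262 ± 11.5 and 229 ± 26.5 CPM and the log2 fold change was -0.19 (SE 0.11, edgeR adjusted p = 0.182).

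Irf4 was not called between durations by edgeR in either genotype. In IRF5-KO it was at 21.3, 52.5, 46.9 and 30.5 CPM on ST-HFD and at 29.6, 10.3, 20.2 and 29.0 CPM on LT-HFD. The groups overlapped, since replicate 1 on ST-HFD was among the LT-HFD libraries, and replicate 2 was the highest on ST-HFD and the lowest on LT-HFD. The log2 fold change was -0.76 (SE 0.29, -1.38 to -0.15, edgeR adjusted p = 0.0543), and DESeq2 called it (adjusted p = 0.0453). It also passed in edgeR without IRF5-KO ST-HFD replicate 1 (adjusted p = 0.0126) or 4 (0.0493) and without IRF5-KO LT-HFD replicate 1 (0.0363) or 4 (0.0398). The replicate block joins same-numbered libraries of the durations, whose deviations correlated at -0.385 to -0.0148 in IRF5-KO, so it rests on a pairing not seen there. Irf4 did not pass with this block (edgeR adjusted p = 0.143), in a fit of the 8 IRF5-KO libraries alone (0.113) or without IRF5-KO ST-HFD replicate 2 (log2 fold change -0.56, 0.181). In WT the estimate was -0.08 (SE 0.29). The summed macrophage and plasmacytoid dendritic cell markers given above were also lower on LT-HFD in IRF5-KO without overlap, and their part in this estimate was not tested.

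Irf1 was not called between durations in either genotype. On ST-HFD it was at 102, 120.5, 48.8 and 119 CPM in WT and at 92.2, 132, 116 and 55.6 CPM in IRF5-KO. WT replicate 3 and IRF5-KO replicate 4 were thus the lowest of all 16 libraries, and the coefficient of variation was 34.4% and 33.6% in these groups against 19.3% and 8.64% on LT-HFD. The log2 fold change of LT-HFD over ST-HFD was 0.47 in WT (SE 0.25, -0.07 to 1.01, edgeR adjusted p = 0.198; 0.25 without WT ST-HFD replicate 3) and 0.12 in IRF5-KO (SE 0.26, adjusted p = 0.751).

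Irf8 (ENSMUSG00000041515, chr8:120736358-120756694, plus strand), the myeloid identity factor, was the steadiest member. It lay between 110 and 157 CPM over all 16 libraries, a coefficient of variation of 9.18%, against 32.8% for Irf4. Group means were 138 ± 13.4 and 129 ± 10.1 CPM on ST-HFD and 133.5 ± 16.6 and 130 ± 10.99 CPM on LT-HFD, in WT and IRF5-KO in turn (SD, n = 4). Between durations its log2 fold change was -0.04 in WT (-0.27 to 0.18) and 0.01 in IRF5-KO (-0.21 to 0.24).

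The members that act in the interferon response proper were not called in any comparison, and they were low, as Irf4 also was (10.3 to 52.5 CPM). Irf3 (ENSMUSG00000003184, chr7:44997648-45002848, plus strand), the constitutive partner of TBK1, lay between 19.1 and 35.96 CPM. Irf7 (ENSMUSG00000025498, chr7:141262706-141266481, minus strand), which amplifies type I interferon, lay between 10.2 and 28.5 CPM on 42 to 128 counts a library. Irf9 (ENSMUSG00000002325, chr14:55603571-55610030, plus strand), the DNA-reading subunit of ISGF3, lay between 39.5 and 67.6 CPM. Their estimates over the 4 genotype and duration comparisons lay between -0.24, for Irf7 between genotypes on ST-HFD, and 0.23, for Irf7 between durations in IRF5-KO. The intervals of Irf7 between durations were -0.51 to 0.66 in WT and -0.36 to 0.82 in IRF5-KO, where leaving out 1 library gave 0.03 to 0.43. Short exon overlaps limit the count of Irf3 (88 bases with Bcl2l12, opposite strand), Irf7 (45 bases with Phrf1, opposite strand) and Irf9 (123 bases with Rnf31, same strand). Irf1, described above, also overlaps exons of Gm17334 on the opposite strand over 135 bases, a gene with a mean of 3.31 counts.

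To order the members, CPM was divided by the length of the union of annotated exons. Irf5 was highest, at 79.4 ± 10.9 CPM per kilobase (SD, n = 16), followed by Irf1 at 27.7 ± 7.32, Irf8 at 18.8 ± 1.72 and Irf2 at 11.7 ± 2.997. The lower members were Irf9 at 9.40 ± 1.42, Irf3 at 7.26 ± 1.28, Irf4 at 6.42 ± 2.11 and Irf7 at 5.50 ± 1.49 CPM per kilobase. Irf5 stood 2.96-fold above Irf1 per kilobase, in 16 of 16 libraries (exact two-sided sign-flip permutation p = 3.05e-05, the smallest these libraries can give, adjusted p = 1.07e-04 over 7 neighbours). Of 7 neighbouring pairs 5 differed. Irf3 and Irf4 (1.18-fold, 11 of 16 libraries, exact adjusted p = 0.181) and Irf4 and Irf7 (1.14-fold, 10 of 16, exact adjusted p = 0.334) did not differ beyond their spread. With the longest protein-coding transcript as length, a choice made after seeing the data, Irf5 stayed first at 103 ± 14.1 CPM per kilobase, Irf1 and Irf8 no longer differed (1.07-fold, exact adjusted p = 0.433), and Irf7 stood above Irf4 (1.43-fold, exact adjusted p = 0.00815) and below Irf3 (exact adjusted p = 0.0032). By the union of exons, Irf2 was ahead of Irf9 in 3 groups and behind it in IRF5-KO on LT-HFD, and by the coding transcript it was ahead in 16 of 16 libraries.

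**Figure D3:**
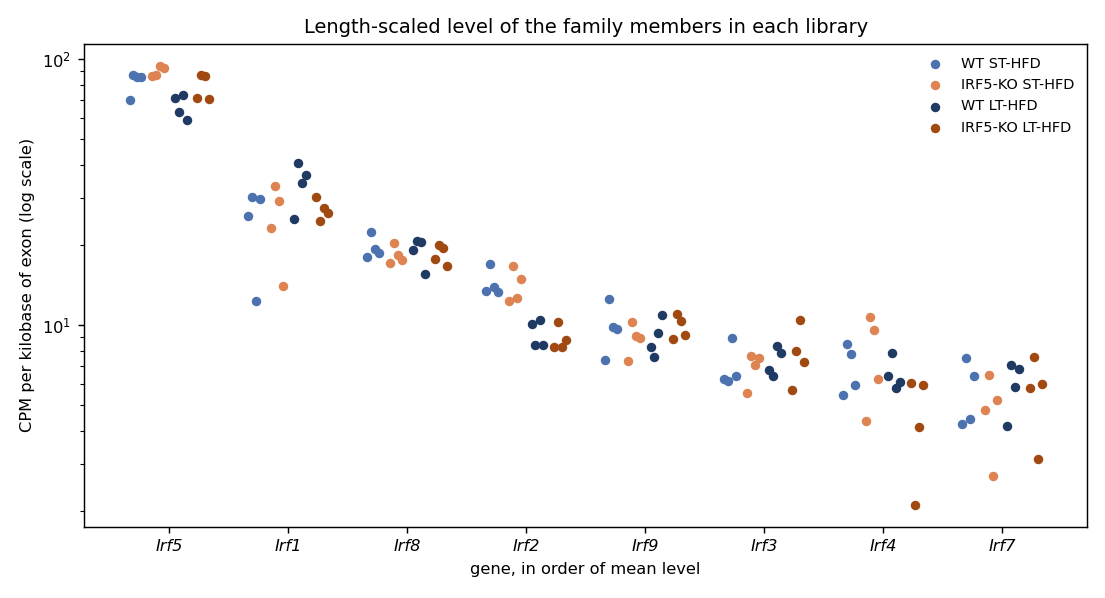
Length-scaled level (CPM per kilobase of exon, log axis) of each member in the 16 libraries, members in order of their mean and points coloured by group. Irf5, at 79.4 CPM per kilobase on average, lies above every other member in all 16 libraries, and Irf3, Irf4 and Irf7 intermingle.

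The share of Irf5 in the counts of the 8 members was 33.5 ± 2.59% in WT and 36.5 ± 3.66% in IRF5-KO on ST-HFD, and 29.3 ± 2.86% and 34.9 ± 2.12% on LT-HFD (SD, n = 4). The difference was 2.99 percentage points on ST-HFD (exact two-sided permutation p = 0.229, adjusted 0.229) and 5.54 on LT-HFD (exact p = 0.0571, adjusted 0.114, over 2 tests), where the smallest p that 4 against 4 allows is 0.0286. Neither passed. Irf8 held 17.9% to 20.2% of the family's counts as group means, Irf1 13.6% to 20.5% and Irf2 9.99% to 15.0%.

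Whether members vary together was examined after centring log2 CPM within groups, over 16 libraries and 28 pairs. No pair passed after adjustment (0 of 28 by r and 0 by rho, permutation tests with 100000 resamples within groups), 2 had an unadjusted p under 0.05, and 19 of 28 r were above 0. Those were Irf2 and Irf8 (r = 0.617, permutation p = 0.0215, adjusted 0.413; rho = 0.576, p = 0.0341, adjusted 0.318) and Irf5 and Irf8 (r = 0.630, permutation p = 0.0295, adjusted 0.413; rho = 0.615, p = 0.0245, adjusted 0.318). When the 2 libraries with the most distant values of the first gene were dropped, r was 0.433 and 0.461. Genes of a library share its depth and composition.

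**Figure D4:**
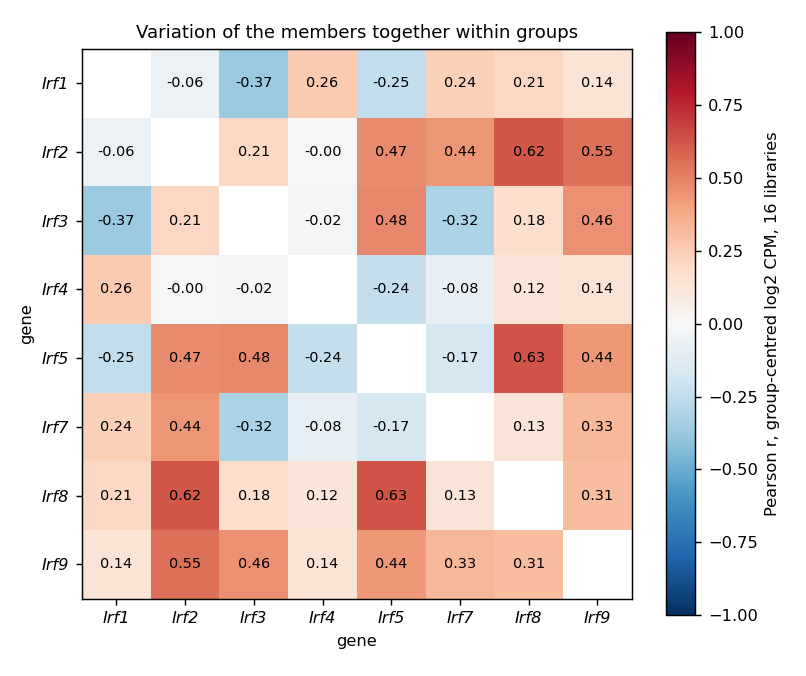
Pearson r between members over 16 libraries after centring log2 CPM within groups (colour scale from -1 to 1). The largest values are 0.630 for Irf5 and Irf8 and 0.617 for Irf2 and Irf8, and none of 28 passed after adjustment.

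Against the rest of the genome, the genes whose within-group pattern was most like a member's were found among 9764 genes, as a description over 16 libraries. Irf1 was followed most closely by Nfkbia (r = 0.904), Zfp36 (r = 0.894) and Nfkbiz (r = 0.891), which encode an NF-kappaB inhibitor, an mRNA-decay factor and a further IkappaB protein and are all known as early induced genes. Nfkbia was at 820, 811, 295.5 and 783 CPM in WT ST-HFD and at 802, 860.2, 816 and 425 CPM in IRF5-KO ST-HFD. The libraries low in Irf1, WT replicate 3 and IRF5-KO replicate 4, were also the lowest in Nfkbia. Irf4 was followed by Zcchc6 (r = 0.945), Plekhg5 (r = 0.938) and P2ry12 (r = 0.933), and Zcchc6 too was lowest in IRF5-KO LT-HFD replicate 2, at 91.4 CPM. Irf5 was closest to Sla (r = 0.894), Wiz (r = 0.882) and Fcer1g (r = 0.854), the last the common gamma chain of Fc receptors. For Irf2 these were Stk11, Hnrnpa0 and Zmiz2 (r from 0.827 to 0.854), for Irf3 Aptx, Spopl and Frg1 (0.816 to 0.835), for Irf7 BC024479, Uqcrh and Clec4a3 (0.806 to 0.834), for Irf8 Zw10, Ccdc109b and Smchd1 (0.857 to 0.906) and for Irf9 Gm12250, Rab3a and Polr3gl (0.818 to 0.877). No member was among the 3 genes most like another.

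The genes that act upstream of, beside and downstream of the IRFs were read from 10 lists of 123 genes, of which 110 were tested. The lists were chosen with earlier results of these data known, so the shares and directions below describe them and are not independent support. Between genotypes edgeR called 0 of 110 on ST-HFD, 0 on LT-HFD and 0 for the interaction, and DESeq2 called 0, 1 and 0. On ST-HFD 4 had an unadjusted p under 0.05 (3.64%, against 1.84% of all genes tested). On LT-HFD 19 did (17.3%, against 5.72% of all genes), and all 19 were lower in IRF5-KO, where 61.0% of the 629 such genes were lower. In all, 78 of the 110 had a log2 fold change below 0 (70.9%, against 49.9% of all genes tested). None of these passed in edgeR after adjustment (adjusted p from 0.639 to 0.853).

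By list, the LT-HFD estimates differed in how evenly they lay below 0. For IRF1 and interferon-gamma targets 13 of 13 tested were below 0, with a median of -0.54 against 0.00 over all genes, and 5 had an unadjusted p under 0.05. IRF4 alternative-activation targets had a median of -0.52, with 6 of 7 below 0 and 5 with such a p, IRF5 inflammatory targets -0.36 with 6 of 6 below 0, and IRF8 targets -0.20 with 7 of 7 below 0. The IRF5 list holds Tgfb1, although the paper describes IRF5 as a repressor of TGF-beta signalling, so its members need not share a direction. ISGF3 targets had 7 of 17 above 0 and a median of -0.13, and the 4 with an unadjusted p under 0.05, Isg15 (-0.71, SE 0.26), Mx1 (-0.84, SE 0.33), Rsad2 (-0.60, SE 0.24) and Ifit1 (-0.50, SE 0.22), were all below 0. The DNA-binding partners, which are not targets, had a median of -0.19 with 4 of 17 above 0. The kinases and ubiquitin enzymes (-0.06), the interferon receptor and JAK genes (-0.01) and the sensors and adaptors (0.02) had medians nearer 0. On ST-HFD the median was -0.18 for IRF1 and interferon-gamma targets, 0.12 for IRF4 targets, 0.21 for IRF5 targets, 0.01 for IRF8 targets, -0.08 for ISGF3 targets and 0.06 for the DNA-binding partners. It was 0.07 for the kinases and ubiquitin enzymes, 0.00 for the receptor and JAK genes and -0.02 for the sensors and adaptors. Ciita, the master regulator of MHC class II and in both the IRF1 and the IRF8 list, was the gene that DESeq2 called (log2 fold change -0.79, SE 0.17, adjusted p = 0.0193; edgeR adjusted p = 0.639). It was at 96.3, 101, 85.4 and 69.1 CPM in WT and at 59.4, 47.4, 43.5 and 53.8 CPM in IRF5-KO, which do not overlap. Ifnb1, the interferon-beta gene and the only 1 of 6 interferons with enough counts, was at 21.98, 20.96, 13.1 and 9.52 CPM in WT and at 10.51, 1.63, 5.90 and 8.34 CPM in IRF5-KO, with overlap (log2 fold change -1.32, SE 0.43, edgeR adjusted p = 0.853). On ST-HFD its log2 fold change was 0.53, and the interaction was -1.85, with an unadjusted p under 0.05 that did not pass after adjustment. The summed level of 8 conventional dendritic cell markers was 55.9 to 145 CPM in WT and 26.3 to 93.0 CPM in IRF5-KO on LT-HFD, with none of them called, and its part in these estimates was not tested. The macrophage markers summed to 8247 to 10140 CPM and 6856 to 7637 CPM in the same groups, a list that includes Lyz2.

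Between durations 26 of 110 list genes were called in WT, 8 higher and 18 lower on LT-HFD (23.6%, against 25.3% of all genes), and 33 in IRF5-KO, 4 higher and 29 lower (30%, against 32.8%). DESeq2 called 26 and 33. The shares called were thus near those of all genes, while the called genes were mostly lower, against 1527 lower and 1401 higher over all genes in WT and 1986 and 1801 in IRF5-KO.

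Each list count below stands against the shares of all genes, 13.2% called lower and 12.1% higher in WT, and 17.2% and 15.6% in IRF5-KO. Among DNA-binding partners 4 of 17 were called in WT and 9 of 17 in IRF5-KO, all lower on LT-HFD. The coactivators Ep300 and Crebbp, histone acetyltransferases that IRF3 and other members recruit, had the smallest p. Ep300 was at 177 to 227 CPM in WT on ST-HFD and 74.2 to 91.2 CPM on LT-HFD, a log2 fold change of -1.37 (SE 0.11, edgeR adjusted p = 1.61e-07), and of -1.35 in IRF5-KO (SE 0.11, adjusted p = 8.68e-08). Crebbp fell by 1.22 (SE 0.15) in WT and by 1.69 (SE 0.15) in IRF5-KO on the log2 scale. Neither overlapped between durations, and the macrophage and plasmacytoid dendritic cell marker sums moved the same way in IRF5-KO, whose part was not tested. Nfkb1 was also called lower in both genotypes, Spi1, which encodes PU.1, the partner of IRF4 and IRF8, was among those called in WT (-0.44, SE 0.13), and Irf2bp2, which encodes a corepressor that binds IRF2, among those in IRF5-KO (-0.54, SE 0.11).

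Upstream of the members the called genes were also mostly lower. Of 16 kinases and ubiquitin enzymes 5 were lower and 1 higher in WT, and 4 were lower in IRF5-KO, among them Ikbkb, which encodes the kinase that activates IRF5 (-0.57 in WT and -0.67 in IRF5-KO, SE 0.13 in each), and Lyn, which encodes a Src-family kinase that restrains IRF5 (-0.41 and -0.43, SE 0.11 in each). Irak4 (-0.73, SE 0.15) was called in WT, and Irak1 (-0.53, SE 0.10) and Traf3 (-1.02, SE 0.21) had the smallest p with Ikbkb in IRF5-KO. Of 18 sensors and adaptors Tlr9 was lower in both genotypes (-0.60, SE 0.20, and -0.97, SE 0.21) and Mavs in WT (-0.53, SE 0.18). Slc15a4, an endolysosomal transporter needed for IRF5 activation, was higher in both genotypes (0.46, SE 0.13 in each). Of 10 interferon receptor and JAK genes 3 were lower in each genotype, Ptpn6, Tyk2 and Jak1, and Socs1 was among the 2 that were higher in WT (1.45, SE 0.35). Ifngr1, which encodes a chain of the interferon-gamma receptor, was the 1 that was higher in IRF5-KO (0.37, SE 0.09).

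Of 17 ISGF3 targets Cmpk2 was higher on LT-HFD in both genotypes (0.82, SE 0.27, and 0.995, SE 0.27), while Ifit1 (-1.37, SE 0.44) and Oas2 (-1.08, SE 0.36) were lower and Usp18 (1.07, SE 0.39) higher in IRF5-KO. Of 13 IRF1 and interferon-gamma targets Ciita and Gbp7 were lower in both genotypes and Socs1, which is also among the receptor and JAK genes, was higher in WT, with Ciita at -1.04 (SE 0.23) in WT and -1.69 (SE 0.24) in IRF5-KO, and Cxcl10 was lower in IRF5-KO (-1.14, SE 0.39). IRF4 alternative-activation targets gave 1 call in WT, Clec10a, higher (0.54, SE 0.17), and 4 in IRF5-KO, all lower, of which Retnla (-2.35, SE 0.56) and Mgl2 (-2.16, SE 0.39) were the largest. The same marker sums moved with these calls. Mgl2 was at 234, 747.5, 684 and 501 CPM in IRF5-KO on ST-HFD and at 104, 118, 76.1 and 186 CPM on LT-HFD, with no overlap. Retnla ranged from 553 to 2463 CPM on ST-HFD and from 161.5 to 575.5 CPM on LT-HFD, with overlap. In WT neither was called, but the mean of Mgl2 also went from 555 to 286 CPM. Its WT libraries ranged from 269.5 to 923 CPM on ST-HFD and from 193 to 422 CPM on LT-HFD, with overlap. Retnla in WT ranged from 510 to 2678 CPM and from 371 to 1648 CPM in turn, also with overlap. Of 6 genes tested in the IRF5 list Tgfb1, which is not an inflammatory cytokine gene driven by IRF5, was lower in both genotypes (-0.56 and -0.67, SE 0.13 in each). Ccl4 was higher in WT (1.03, SE 0.34) and Il1b lower in IRF5-KO (-1.96, SE 0.57). Of 7 IRF8 targets Klf4, a monocyte differentiation factor, was lower in both genotypes (-1.30, SE 0.28, and -1.83, SE 0.28), as was Ciita, and Cst3, which encodes cystatin C, was higher in WT (0.46, SE 0.14). The interaction of these genes was not called in any list.

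**Figure D5:**
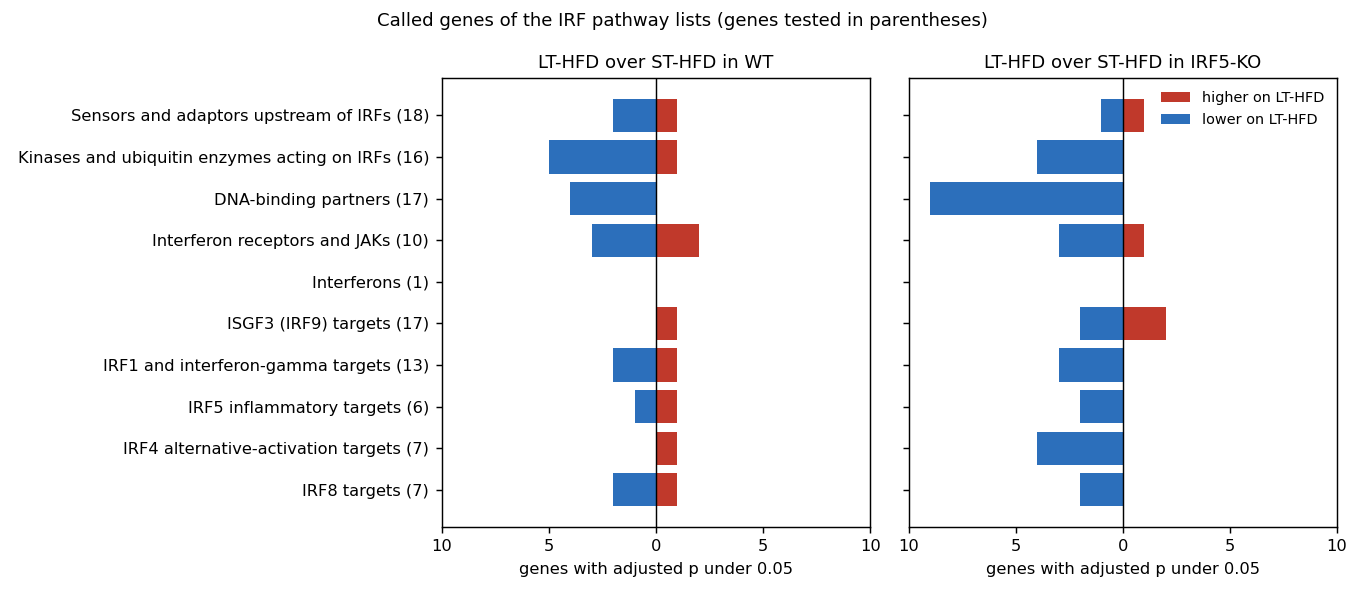
Number of genes of each IRF pathway list with an adjusted p under 0.05 in edgeR between LT-HFD and ST-HFD, in WT (left) and IRF5-KO (right); bars to the right count genes higher and bars to the left genes lower on LT-HFD, and parentheses give the genes tested. The longest bar is that of the DNA-binding partners, with 9 of 17 lower in IRF5-KO and 4 of 17 in WT, where 17.2% and 13.2% of all genes were called lower.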

How the data were processed

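Total RNA from F4/80+ ATMs of epididymal white adipose tissue, isolated with magnetic beads, was sequenced in 16 libraries (10 ng RNA each, SMARTer stranded total RNA kit). The authors trimmed reads with fastp 0.19.11 and deposited raw read counts per gene made with STAR 2.7.3a on mm10; the submitters' notes also list mm9. Groups followed the labels. The count table was analysed with edgeR 4.0.16 in R 4.3.3 (filterByExpr, TMM, quasi-likelihood test, Benjamini-Hochberg, adjusted p under 0.05), per duration for genotype (8 libraries) and over 16 libraries for duration and interaction, with DESeq2 1.42.0 as an alternative. CPM is the count scaled by TMM to a common library size. Exon lengths came from GENCODE on GRCm38, matched for 32620 of 37310 identifiers. The members, and the gene lists of their pathway, were chosen with earlier results of these data known. Named list genes were the called genes, at most 4 per list and comparison by p, or else the gene with the smallest p. The tests were tested on simulated data. Same-numbered WT and IRF5-KO libraries on ST-HFD deviated together (correlations 0.368, 0.483, 0.179 and 0.298, all above 0.1). The highest correlation between differently numbered libraries, 0.467, was above 3 of the 4, so a pairing by number is not established. The main fits and the test of the Irf5 share were unpaired, and the replicate block by number was run only as an alternative. Replicate numbers came from the labels. Permutation tests were two-sided (scipy 1.17.1). Some items are not reported here.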

Additional observations from a re-analysis of the deposited data

Results flagged for a closer look

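In 3 of 32 groups of 4 libraries 1 library stood apart from the other 3 by Dixon's ratio, and chance alone flags about 1 in 20 such groups. Irf5 in WT ST-HFD replicate 1 was the lowest, at 202.9 CPM (ratio 0.914). Irf3 in WT ST-HFD replicate 3 was the highest, at 30.62 CPM (ratio 0.903). Irf2 in WT ST-HFD replicate 2 was the highest, at 124.9 CPM (ratio 0.832).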

How the results depend on the processing

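Between durations in WT 2 members were called, and 1 with no filter on low counts, without the 3 most abundant features, in a fit over the 8 libraries of the genotype and with the replicate block, and 1 to 2 when 1 library was left out. The member lost was Irf5 (log2 fold change -0.32, -0.29, -0.28 and -0.30 under these settings in turn, edgeR adjusted p from 0.0541 to 0.101). In IRF5-KO 1 member was called, and 2 with DESeq2 and with no filter, and 1 to 2 when 1 library was left out; the member gained was Irf4. Irf2 was called in both genotypes under every alternative run. The replicate block changed no other call of a member, and outside WT against IRF5-KO on ST-HFD same-numbered libraries did not deviate together (correlations from -0.385 to 0.363). With 0 members called between genotypes or for the interaction, leaving out 1 library also gave 0. Of 232 member fold changes under other settings 223 kept their direction and side of the threshold and 3 changed sign near 0: Irf1 between genotypes on ST-HFD with no filter (-0.00031), Irf3 in the same comparison over all 16 libraries (0.0029) and Irf8 between durations in IRF5-KO with no filter (-0.0018). The cause was not tested.

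When 1 library was left out, some estimates that were not called changed sign. Between genotypes after ST-HFD they ranged from -0.21 to 0.20 for Irf1, -0.12 to 0.0448 for Irf2, -0.0638 to 0.14 for Irf3 and -0.0475 to 0.35 for Irf4. After LT-HFD they ranged from -0.0708 to 0.22 for Irf3, -0.27 to 0.12 for Irf7 and -0.13 to 0.0144 for Irf8. For the interaction the ranges were -0.13 to 0.046 for Irf2, -0.0763 to 0.21 for Irf3, -0.0425 to 0.35 for Irf7 and -0.0258 to 0.11 for Irf8. Between durations in WT they were -0.18 to 0.0326 for Irf4, -0.0338 to 0.24 for Irf7, -0.0892 to 0.0394 for Irf8 and -0.23 to 0.0173 for Irf9, and in IRF5-KO -0.0747 to 0.29 for Irf1 and -0.0281 to 0.0649 for Irf8. The difference in the Irf5 share was 2.00 to 4.74 percentage points after ST-HFD and 4.72 to 6.72 after LT-HFD, and 5 to 6 neighbouring members differed per kilobase. Irf4 and Irf7, at as few as 38 and 42 counts a library, had among the widest intervals.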
